A study of Arabidopsis thaliana with 20 samples.

Results

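AT3G23090, listed by RefSeq under the synonym WDL3, and KINESIN-13A (AT3G16630) are Arabidopsis thaliana genes for microtubule-associated proteins, and their transcripts were followed across whole seedlings in which the vessel factor VND7 could be switched on. They are 2 of the 13286 genes that had a probe set of their own in the table, which holds 22746 probe sets. AT3G23090 was selected on the difference between its responses to dexamethasone (DEX) in the lines studied, so its DEX responses, their difference and its line differences are given as a description, with no test. KINESIN-13A was taken up as the measured member of a list of vessel wall patterning genes, with its values in these arrays already known.

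The groups were 10-day-old seedlings of 2 transgenic lines, each with 5 arrays per treatment. The VND7 fusion line carries 35S:VND7-VP16-GR (the genotype field writes 35S:VND-VP16-GR:NOS). It makes VND7, a NAC-domain regulator that drives cells to become xylem vessels, as a fusion with VP16, which activates transcription, and with the steroid-binding part of the glucocorticoid receptor (GR). In that line, seedlings were kept in the protein synthesis inhibitor cycloheximide (CHX) for 2 h and then in CHX with DEX for 4 h, or in CHX alone for 6 h. The empty-vector line carries 35S:VP16-GR:NOS, the same fusion parts with no VND7, and was treated in both ways too. Each line is a single homozygous insertion driven by the constitutive 35S promoter, so a feature of one insertion and a feature of its construct cannot be told apart. All 20 samples received CHX. The treatment protocol gives 10 µM for both compounds and other label fields give 10 mM. DEX lets a protein fused to the GR domain enter the nucleus, and CHX keeps new proteins from being made, so the design asks which genes respond to VND7 directly, against seedlings that carry the empty vector. In those seedlings the effects of DEX and of VP16-GR entering the nucleus cannot be told apart. The level of VND7 in each sample is not analysed here.

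Microtubules are hollow polymers of alpha- and beta-tubulin. In plant cells a layer of them under the plasma membrane, the cortical array, guides the enzymes that lay down cellulose, and in differentiating vessel cells bundles of microtubules mark the thickened bands of the secondary wall. AT3G23090 (WDL3) belongs to the WAVE-DAMPENED2 family, whose proteins bind and bundle cortical microtubules, and WDL3 is known for restraining hypocotyl elongation in light. KINESIN-13A is a microtubule-depolymerising motor protein. In metaxylem vessels it is brought to microtubules by MIDD1, a partner of ROP GTPases, and clears them from the pits, where no secondary wall forms.

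Transcript levels are MAS5 signals of Affymetrix one-colour arrays, in arbitrary units, recovered from deposited values that had been centred on each array's median. The array medians lay between 159.7 and 186 units. Within a group, any 2 arrays correlated at r = 0.933 or more over the probe sets. The leaf markers RCA and LHCB4.1 had signals of at least 14967 and 10597 on every array, and PYK10, abundant in roots, had at least 1703, so leaf and root RNA were both present. The root hair expansins EXPA7 and EXPA18 were dim, at 3.0 to 69.3 and 32.8 to 97.8 units. None of these 5 markers passed the test in either DEX response, where 0.453% (VND7 fusion line) and 0.281% (empty-vector line) of all probe sets did. PYK10 differed between the lines in one fit, as given with the line differences. The vessel genes XCP1, XCP2 and IRX3 had no probe set paired with them alone in the annotation and are not analysed here. In whole seedlings, fewer cells of a type and less RNA per cell cannot be told apart.

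AT3G23090 was high in 1 of the 4 groups, and that group was the empty-vector line with DEX. Its signals there were 406.2, 310.4, 358.3, 463.7 and 418.6 units in replicates 1 to 5 with DEX and CHX, against 133.6, 85.8, 156.1, 120.4 and 83.3 with CHX alone. The lowest of the 5 DEX arrays, at 310.4 units, lay above all 15 arrays of the other groups, the highest of which was at 210.8. Selection on the difference of responses favours such a separation, and the share of all probe sets that separate likewise was not counted. The group means were 391 ± 58.8 units with DEX and CHX and 116 ± 31.3 with CHX alone (SD, n = 5 each), a log2 change of 1.78 ± 0.21 (SE of the limma fit), or 3.44-fold.

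In the VND7 fusion line the same gene was not higher with DEX. AT3G23090 had 115.4, 89.4, 113.4, 106.4 and 101.8 units in replicates 1 to 5 with DEX and CHX, against 210.8, 105.9, 190.9, 133.9 and 121.9 with CHX alone. The DEX array was the lower one in 5 of 5 same-numbered pairs, as were 884 of 22746 probe sets (3.9%), yet the ranges of the groups overlapped between 105.9 and 115.4 units. Means were 105 ± 10.4 units with DEX and CHX and 153 ± 45.6 with CHX alone (SD, n = 5 each), and the log2 change was -0.51 ± 0.21 (SE). The spread between arrays was narrow with DEX, where the SD was 9.89% of the mean, and wide with CHX alone, where it was 29.9%.

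**Figure D1:**
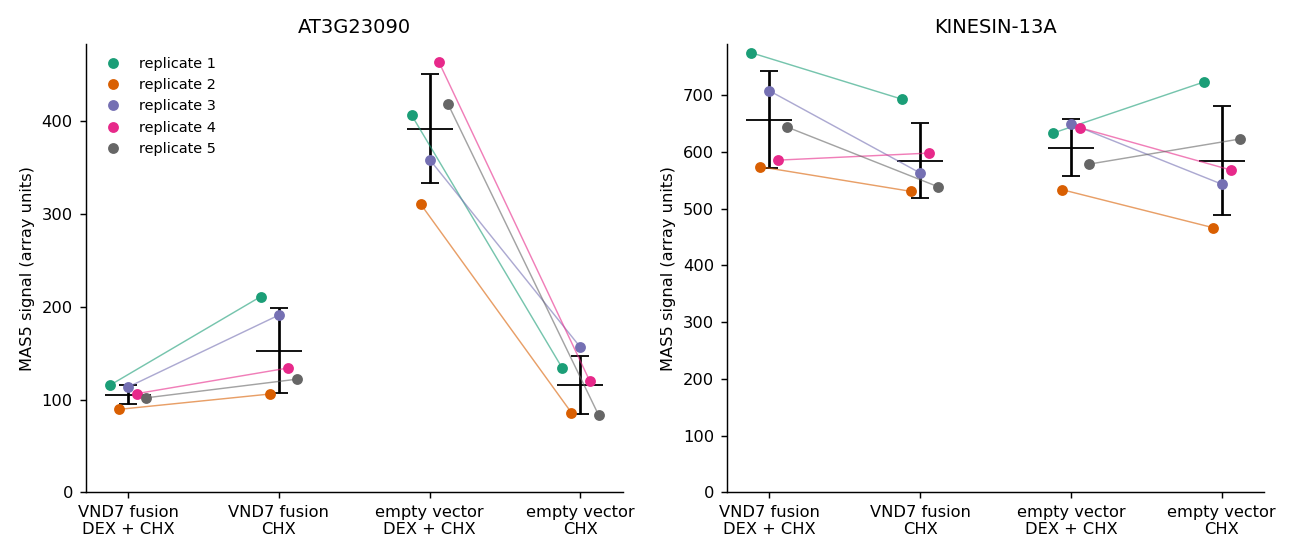
MAS5 signal (array units) of AT3G23090 (left) and KINESIN-13A (right) in each of the 20 arrays, with group means and SDs (black, n = 5) and thin lines joining arrays of one line with the same replicate number. For AT3G23090 the 5 empty-vector arrays with DEX sit between 310.4 and 463.7, above the other 15, and for KINESIN-13A the ranges of all 4 groups overlap.

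Pair by pair, the size of the AT3G23090 response varied within each line while its direction did not. With the VND7 fusion the log2 change was -0.92, -0.28, -0.86, -0.28 and -0.22 in replicates 1 to 5. With the empty vector it was 1.68, 1.82, 1.16, 1.94 and 2.33. The larger decreases with the VND7 fusion, in replicates 1 and 3, went with the highest CHX arrays of that line, at 210.8 and 190.9 units. The smallest increase with the empty vector, in replicate 3, went with the highest CHX array of that line, at 156.1. Each change is the DEX array minus the CHX array, so a high CHX array lowers it by construction. The difference between the responses, which is the value for which the gene was chosen, ran from -2.60 to -2.01 with an SD of 0.26 over the 5 pairs. The SDs were 0.35 for the VND7 fusion response and 0.43 for the empty-vector response. Selection on the difference can favour a small spread in it, so its smaller SD is a description. The limma estimate of that difference was -2.30 ± 0.29 (SE). The fit called 0.391% of all probe sets in this contrast, AT3G23090 among them by its selection.

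**Figure D2:**
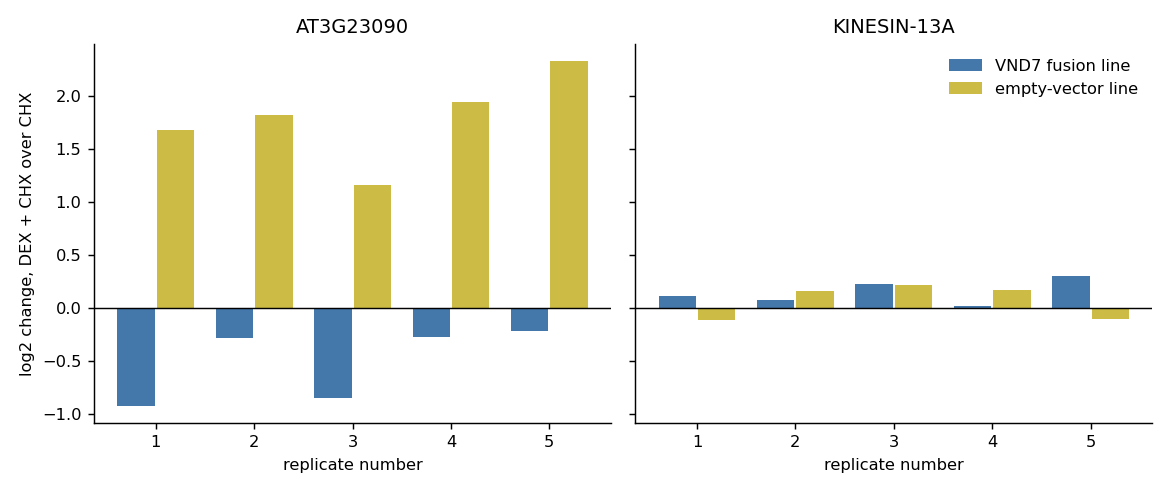
Log2 change with DEX (DEX with CHX over CHX alone) for each replicate number in the VND7 fusion line (blue) and the empty-vector line (yellow). For AT3G23090 all 5 changes are below 0 with the VND7 fusion and above 1 with the empty vector, and for KINESIN-13A all 10 lie between -0.12 and 0.30.

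Set side by side, the lines differed mainly where DEX was present. With DEX and CHX, AT3G23090 was lower with the VND7 fusion in 5 of 5 pairs, at 0.227 to 0.32 of its empty-vector level on the median-centred scale, with a log2 difference of -1.89 ± 0.21 (SE). Under CHX alone it was slightly higher in the VND7 fusion line, also in 5 of 5 pairs, with a log2 difference of 0.41 ± 0.21 (SE) and ranges that overlapped (105.9 to 210.8 units with the VND7 fusion, 83.3 to 156.1 with the empty vector). For both line differences, the share of all probe sets with 1 sign in 5 of 5 pairs was not counted. In order of mean level, empty vector with DEX stood first, then the VND7 fusion with CHX alone, the empty vector with CHX alone and the VND7 fusion with DEX. Each neighbouring pair after the first overlapped in range, and the 116 ± 31.3 units of the empty vector with CHX alone and the 105 ± 10.4 of the VND7 fusion with DEX differed by less than 1 SD of the first.

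Averaged over both treatments, AT3G23090 was lower in the VND7 fusion line by a log2 difference of -0.74 ± 0.15 (SE, n = 10 arrays per line). This value is a description with no test, since it rests on the same 5 high arrays of the empty-vector line with DEX: the line difference was -1.89 with DEX and of the opposite sign, 0.41, under CHX alone. In this contrast 0.857% of all probe sets passed in limma, and 2.7% when replicate number was a block. Of the 5 tissue markers none passed in this contrast without the block and 1 passed with it. That was PYK10, at 3864 ± 2414 units with DEX and 3734 ± 2053 without it for the VND7 fusion, and 4742 ± 1921 with DEX and 5045 ± 2360 without it for the empty vector (SD, n = 5 each). It was lower in the VND7 fusion line by a log2 difference of -0.46 ± 0.28 (limma adjusted p = 1, and 0.00483 with the block), in 5 of 5 pairs both with DEX and under CHX alone. How many probe sets share that pairwise agreement was not counted. The part of PYK10 in the AT3G23090 values was not tested.

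KINESIN-13A gave similar signals in all 4 groups. With the VND7 fusion its signals were 775, 574, 708, 585.7 and 643.8 units in replicates 1 to 5 with DEX and CHX, against 693.1, 530.6, 563.1, 598.1 and 538.7 with CHX alone. With the empty vector they were 633.2, 533.7, 649.6, 642.8 and 578.6 units with DEX and CHX, against 723.2, 466.8, 543.4, 568.3 and 622.9 with CHX alone. Every pair of groups overlapped in range. The group means were 657 ± 84.7 with DEX and 585 ± 66.0 without it for the VND7 fusion, and 608 ± 49.9 with DEX and 585 ± 95.5 without it for the empty vector (SD, n = 5 each).

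The DEX response of KINESIN-13A did not pass in either line. In the VND7 fusion line its log2 change was 0.14 ± 0.11 (SE; limma adjusted p = 1) with a 95% interval of -0.09 to 0.37, and the lower end corresponds to 0.942-fold. The array with DEX was the higher one in 5 of 5 pairs once each array was set to its median, by a log2 change of 0.02 to 0.30, and 956 of 22746 probe sets (4.2%) were likewise higher in all 5 pairs. In the empty-vector line its log2 change was 0.06 ± 0.11 (limma adjusted p = 1; interval 0.891-fold to 1.23-fold), with 3 of 5 pairs higher. Of all probe sets, 0.453% passed in the VND7 fusion line and 0.281% in the empty-vector line.

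The lines did not differ detectably in KINESIN-13A either. The difference between its responses was 0.08 ± 0.16 on the log2 scale (limma adjusted p = 1; 95% interval -0.24 to 0.41). With DEX and CHX the line difference was 0.11 ± 0.11 (limma adjusted p = 0.9999), where 1.32% of probe sets passed, and under CHX alone it was 0.03 ± 0.11 (limma adjusted p = 0.9998), where 0.0264% passed. Over both treatments KINESIN-13A differed between the lines by 0.07 ± 0.08 (limma adjusted p = 1; 95% interval 0.935-fold to 1.17-fold). With the replicate number as a block, the smallest limma adjusted p of KINESIN-13A in these 6 contrasts was 0.6677, while the block called 1.04% and 0.712% of probe sets in the responses of the VND7 fusion and empty-vector lines, 1.05% in their difference, and 3.24% and 0.0923% in the line differences with DEX and under CHX alone.

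Between replicate numbers, KINESIN-13A spread more widely than between groups. Its mean over the 4 arrays of a number was 706 units in replicate 1, 526 in replicate 2, 616 in replicate 3, 599 in replicate 4 and 596 in replicate 5. For AT3G23090 the mean was also lowest in replicate 2, at 148 units, and highest in replicate 1, at 217. Across the 20 arrays the log2 levels of the members correlated with r = 0.109, or -0.108 after each replicate number's mean was removed, so they did not follow each other. These arrays share replicate numbers and array scaling, and the r is a description.

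Both genes belong to families with other measured members, which gives their values a context. Of the 9 listed loci of the WAVE-DAMPENED2 and TPX2 family, 5 had a probe set of their own, and among the 4 other than AT3G23090 none passed in any contrast. At most 1.32% of all probe sets passed in a contrast without the block, so a count of 0 is near the background. AT2G35880 changed by -0.19 ± 0.26 on the log2 scale in the VND7 fusion line and by 0.22 ± 0.26 in the empty-vector line, neither past the threshold. AT4G32330 had -0.06 ± 0.14 and -0.32 ± 0.14, AT1G54460 had -0.05 ± 0.16 and 0.02 ± 0.16, and AT1G70950 had -0.42 ± 0.76 and -0.29 ± 0.76, in the same order of lines. AT1G70950 was dim, at 2.6 to 76.8 units, so its changes show little. The empty-vector response of AT3G23090, at 1.78, lay outside the range of these relatives, -0.32 to 0.22, and that response is part of the difference on which the gene was selected.

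The other locus of the kinesin-13 list, AT3G16060, did not pass in any contrast either. It averaged 264 ± 41.8 units with DEX and 296 ± 37.3 without it for the VND7 fusion, and 303 ± 24.8 with DEX and 287 ± 19.9 without it for the empty vector (SD, n = 5 each). Its DEX response on the log2 scale was -0.19 ± 0.11 in the VND7 fusion line and 0.08 ± 0.11 in the empty-vector line (limma adjusted p = 1 for each). The direction with the VND7 fusion was opposite to that of KINESIN-13A, with 4 of 5 pairs lower.

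Of 17 tubulin genes, which encode the building blocks of the polymer, 7 were measured and none passed. In the DEX responses 0.453% (VND7 fusion line) and 0.281% (empty-vector line) of all probe sets passed, so a count of 0 is near the background. Their log2 changes ran from -0.07 to 0.11 with the VND7 fusion and from -0.20 to 0.34 with the empty vector, with medians of 0.06 for the first and -0.04 for the second. TUA6, an alpha-tubulin gene, had 0.10 ± 0.19 in the VND7 fusion line and -0.20 ± 0.19 in the empty-vector line. TUB1, a beta-tubulin gene, had -0.06 ± 0.29 and 0.34 ± 0.29 in that order of lines. The other 5, TUA1, TUB5, TUB6, TUB7 and TUB9, lay within these ranges. These SEs include shifts in level between replicate numbers. With the replicate number as a block, the SE of TUB5 was 0.12 in place of 0.42 and that of TUB9 0.06 in place of 0.21, and no tubulin gene passed.

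Of 30 other microtubule-associated genes 9 were measured, and again none passed without the block, near the background of at most 1.32% of all probe sets. ATMAP65-6, of a family that cross-links neighbouring microtubules, came nearest to the AT3G23090 pattern. It averaged 223 ± 88.8 units with DEX and 232 ± 88.1 without it for the VND7 fusion, and 349 ± 58.4 with DEX and 225 ± 60.7 without it for the empty vector (SD, n = 5 each). Its log2 change was 0.65 ± 0.24 with the empty vector (limma adjusted p = 0.9295; higher in 5 of 5 pairs, as were 1073 or 4.7% of all probe sets) and -0.09 ± 0.24 with the VND7 fusion. With DEX and CHX it was lower in the VND7 fusion line by a log2 difference of -0.71 ± 0.24 (limma adjusted p = 0.2946), which passed with the replicate number as a block (limma adjusted p = 0.01155).

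AT5G23430, placed in the same list, had a DEX response of 0.34 ± 0.22 in the VND7 fusion line and 0.77 ± 0.22 in the empty-vector line (limma adjusted p = 1 and 0.3669), higher in 4 and in 5 of 5 pairs. SPR1, which keeps the growth of organs straight through the cortical array, had -0.03 ± 0.12 in the VND7 fusion line and -0.07 ± 0.12 in the empty-vector line. Its relatives SP1L2, SP1L3, SP1L4 and SP1L5 and the loci AT1G11160 and AT5G08390 lay between -0.15 and 0.26 with the VND7 fusion and between -0.21 and 0.30 with the empty vector. Of these, SP1L2, SP1L5 and AT1G11160 were dim, with group means between 22.9 and 42.5 units, which limits what their changes can show.

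Taking all the microtubule lists, 69 loci besides the 2 members were listed and 21 measured. None of the 21 passed in any of the 6 contrasts in limma without the block, with a median log2 change of -0.03 in the VND7 fusion line and 0.02 in the empty-vector line, against -0.02 and -0.01 over all 22746 probe sets. With 21 genes and at most 1.32% of probe sets called, a count of 0 is near the background. By sign alone, 4 of the 21 were higher in all 5 empty-vector pairs (AT2G35880, TUB1, ATMAP65-6 and AT5G23430) and 2 were lower in all 5 (AT4G32330 and SP1L3), where 4.7% and 4.4% of all probe sets were. In the VND7 fusion line 1 of the 21, TUB9, was higher in all 5 pairs and 0 were lower, where 4.2% and 3.9% of all probe sets were. In the difference of responses 4 (AT2G35880, AT3G16060, TUB1 and ATMAP65-6) were lower in all 5 pairs and 0 higher. The share of all probe sets was not counted for that difference, so these 4 cannot be set against a background. The list of vessel wall patterning held 14 genes, among them MIDD1 and ROP11. Of these the annotation pairs only KINESIN-13A with a probe set of its own, so the response of that pathway as a whole is not analysed here. The 8730 probe sets with no gene listed may still read the others.

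**Figure D3:**
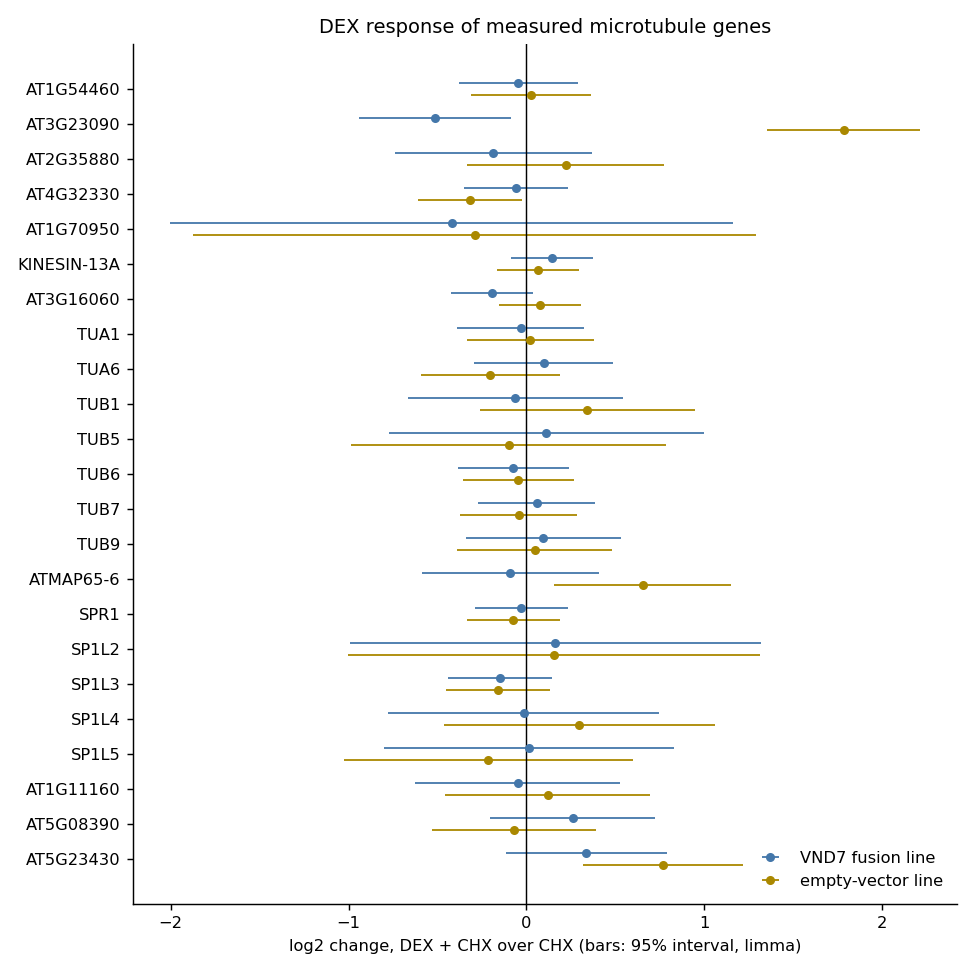
Log2 change with DEX (DEX with CHX over CHX alone) of the 23 measured microtubule genes in the VND7 fusion line (blue) and the empty-vector line (yellow), with 95% intervals from limma without the replicate block. The empty-vector point of AT3G23090, at 1.78, lies to the right of all others, which run from -0.51 to 0.77.

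The genes picked as most like AT3G23090 had their highest mean in the empty-vector line with DEX, which a high r with its pattern favours by construction. They were picked on these same arrays, so their values are a description. Likeness was Pearson's r over the 20 arrays after each replicate number's mean was removed. Candidates were the 5938 named probe sets whose mean over the 20 arrays lay above the array median, a limit that high values in 1 group can help a gene to pass. AT3G01190 came first (r = 0.968), with means of 1067 ± 276 units for the VND7 fusion with DEX, 1215 ± 329 for it without DEX, 4409 ± 1359 for the empty vector with DEX and 1084 ± 301 for it without DEX (SD, n = 5 each). It was followed by AT2G01540 (r = 0.951), GH3.17, which joins auxin to an amino acid (r = 0.935), AT3G27950 (r = 0.934) and AT3G46700 (r = 0.93). Their log2 changes with the empty vector were 2.01, 1.28, 1.91, 1.76 and 0.99 in that order, and those with the VND7 fusion lay between -0.26 and -0.09. AT3G46700 averaged 369 units in the empty-vector line with DEX and 185 without it, and 146 with DEX and 174 without it for the VND7 fusion.

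For KINESIN-13A the likeness was weaker. NRPA2, a subunit of RNA polymerase I, came first (r = 0.835), then AT1G14910 (r = 0.812), AT1G17360 (r = 0.802), AT3G62360 (r = 0.777) and AT5G55550 (r = 0.769). Their log2 changes were 0.10 to 0.42 in the VND7 fusion line and 0.06 to 0.14 in the empty-vector line. These lists depended on the measure: without removing the replicate means, 2 of the 5 named for AT3G23090 and 1 of the 5 for KINESIN-13A were again among the first 5, and with Spearman's rho 1 and 3 were.

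**Figure D4:**
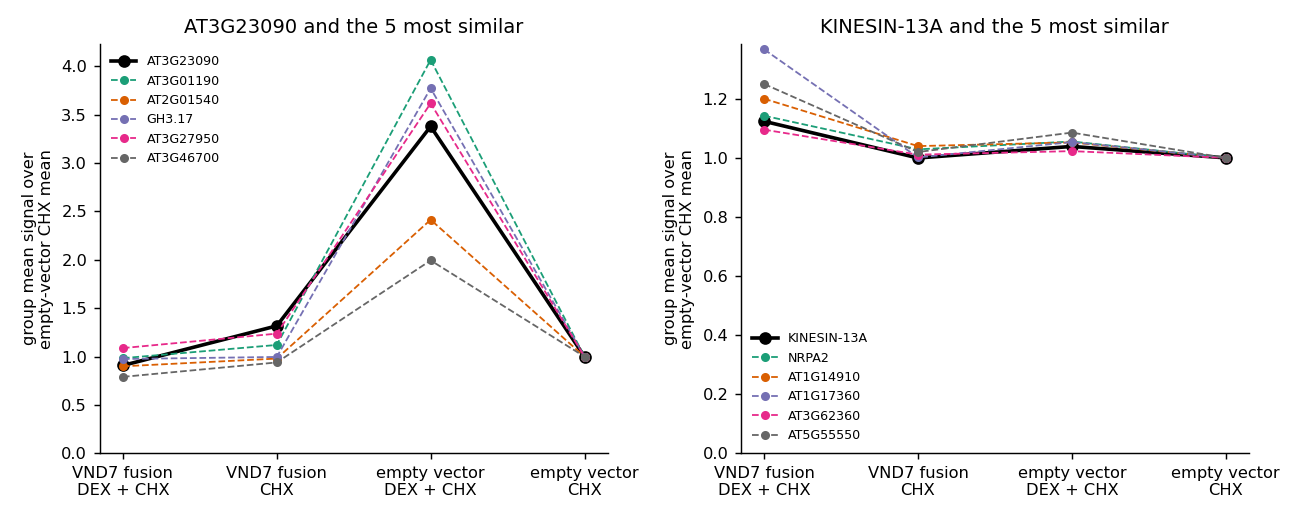
Group mean signal divided by the empty-vector CHX mean (so that this group is at 1) for AT3G23090 with its 5 most similar genes (left) and KINESIN-13A with its 5 (right), both axes from 0. The 5 genes on the left share the peak in the empty-vector line with DEX, and those on the right stay close to 1 in 3 groups and are somewhat higher in the VND7 fusion line with DEX.

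Genes beside AT3G23090 on its chromosome were looked up too. Among the 10 protein-coding genes on each side in the RefSeq annotation, 6 had a probe set of their own and none passed in either line. Of all probe sets 0.453% passed in the VND7 fusion line and 0.281% in the empty-vector line, so a count of 0 is near the background. On one side only AT3G23160, 10 genes away, was measured, so the nearer genes on that side are not covered. AT3G23080, the next gene on the other side, had a DEX response of 0.03 ± 0.20 in the VND7 fusion line and -0.15 ± 0.20 in the empty-vector line. CFM3A, the one after it, had -0.02 ± 0.20 and -0.01 ± 0.20 in that order of lines. AT3G23060 had 0.57 ± 0.74 and 1.39 ± 0.74 at a mean signal of 27.4 units, with an SE too wide to show a direction. Of the neighbours of KINESIN-13A 8 were measured, and none passed, again near the background.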

How the data were processed

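One table of 20 arrays was used. The submitters' processing notes name MAS5 without a version. The authors deposited natural logs of the signal over the array's median. This was worked out from the values: columns had a median of 0, and their exponentials were, for 100% of values under 3000 steps, whole multiples of one step (tolerance 0.02), taken as 0.1 unit. Tests used log2 values. No pseudocount was used and no column was left unused. Each sample's group came from its title. Array number limits precision, and no detection calls were used.

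Probe sets were named through GEO's platform annotation and RefSeq (TAIR10.1, names and gene order only). Of these, 13436 matched 1 gene alone, 503 had several genes, 77 had 1 unmatched gene and 8730 were not listed. No coordinates or sequences are printed, and which of the RefSeq transcripts (5 of AT3G23090, 2 of KINESIN-13A) each probe set reads is not known here.

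All 22746 probe sets were fitted with limma 3.58.1 in R 4.3.3 (lmFit, eBayes with a variance trend, 4 group means, 20 arrays), with Benjamini-Hochberg adjusted p under 0.05 as the threshold. In data simulated for the 22746 probe sets with independent noise, changes were added to 100 probe sets per size, all averaging above the array median. Of these, 97% of changes of 2 log2 units and 67% of changes of 1 were recovered in the empty-vector response. Recovery of changes in dimmer probe sets, among them that of AT3G23090, was not simulated. Nothing says that replicates were separate cultures, and p-values then cover only the spread among these 20 samples, which may be technical. Replicate numbers were read as pairing arrays, since deviations from group means correlated for same-numbered arrays in each of 30 pairs (r = 0.558 to 0.835 across 11367 probe sets). Arrays of other numbers had a median r of -0.296 in 120 pairs, but some reached 0.779. Some numbers thus resembled each other, and the 5 pairs of a line need not be independent. Alternatives were a replicate block, quantile normalization, the trimmed-mean scale, a pseudocount (30th percentile, 52.9 units), no variance trend, no dim probe sets and leaving out arrays. A planned test of the mean line difference of AT3G23090 is not given, because its selection used the same arrays. The members and lists were chosen with earlier results of these data known. Named genes were the members, every measured gene of the lists and the 5 most similar to each member. Neighbouring genes were added after the data had been seen.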

Additional observations from a re-analysis of the deposited data

Results flagged for a closer look

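The DEX response of AT3G23090 differed between the lines by -2.30 on the log2 scale (limma), the value for which the gene was chosen. Among 112 groups of 5 arrays (28 genes), 8 held an array far from the other 4, where chance flags about 1 in 20 groups of independent, normal values. Same-numbered arrays were correlated, so flags that share a number, such as those in replicate 1, are not separate events. In the empty-vector line with DEX the flagged arrays were EXPA18 in replicate 1 (81.4 units, others 32.8 to 45.8) and SP1L2 in replicate 4 (8.9, others 32.7 to 38.9). In the empty-vector line with CHX alone they were EXPA18 in replicate 1 (97.8, others 38.3 to 49.4), AT4G32330 in replicate 1 (395.9, others 262.3 to 300), ATMAP65-6 in replicate 1 (329.9, others 185.8 to 223.4) and LHCB4.1 in replicate 2 (12441.9, against at least 16920 in the others). In the VND7 fusion line with CHX alone they were TUB1 in replicate 1 (192.7, others 73.5 to 94.4) and TUB6 in replicate 2 (563.4, others 689.7 to 736.3). Neither member had such an array in any group.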

How the results depend on the processing

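Over 31 alternatives for each of 6 contrasts, AT3G23090 kept its direction throughout. The 30th-percentile pseudocount, which shrinks changes of low signals by construction, moved its empty-vector response to 1.41, the difference of responses to -1.76 and the line difference with DEX to -1.48. Leaving out arrays gave 1.65 to 1.94, -2.43 to -2.17 and -1.95 to -1.83 for these, -0.62 to -0.39 for the VND7 fusion response and 0.28 to 0.54 for the line difference under CHX. Its mean line difference was -0.80 to -0.67 (-0.74 without replicate 2, -0.67 without replicate 4). KINESIN-13A passed under none of the alternatives. Its line difference under CHX alone turned sign when arrays were left out (from -0.03659 without replicate 1 of the VND7 fusion with CHX to 0.08606; -0.02804 without replicate 2 of the empty vector with CHX, -0.01238 without replicate 2 and -0.0005627 without replicate 3), and so did its difference of responses (-1.803e-05 without replicate 5, up to 0.14). Counts of probe sets called rose with the replicate block, to 236 from 103 for the VND7 fusion response, 162 from 64 for the empty-vector response, 239 from 89 for the difference, 737 from 300 and 21 from 6 for the line differences with DEX and under CHX, and 615 from 195 for the mean line difference. Leaving out arrays gave 57 to 108, 38 to 68, 34 to 100, 195 to 302, 5 to 8 and 118 to 203 in that order. The block gave KINESIN-13A no call. Of the 5 most similar genes of AT3G23090, 2 stayed without removing replicate means and 1 with Spearman's rho, and of KINESIN-13A 1 and 3. The cause of these changes was not tested. Genes as dim as EXPA7 limit what their ratios can show.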
